A study of Mus musculus with 55 samples.

Results

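The 8 genes described here are Pmp22, Mbp, Sox10, S100b, Prx, Mag, Ncmap and Egr2, genes used to recognise Schwann cells, the glial cells of peripheral nerve, and their myelin. They were taken by symbol from a table of 24453 genes, and all 8 were measured in each of 55 libraries of mouse hindlimb muscle. The libraries came from flexor digitorum brevis (FDB), a short foot muscle, soleus (SOL), a slow calf muscle, and extensor digitorum longus (EDL), a fast shin muscle, of mdx or wild-type (wt) mice at 5 or 2 months of age. mdx mice carry a mutation in Dmd that removes full-length dystrophin from muscle fibres, and they are widely used to model Duchenne muscular dystrophy. FDB gave 7 mdx and 4 wt libraries at 5 months and 3 mdx and 4 wt libraries at 2 months. SOL gave 7 mdx and 4 wt libraries at the later age, with 4 of each at the earlier one. EDL gave 6 mdx and 4 wt libraries at 5 months, again with 4 of each at 2 months. The labels name no further allele or treatment in any group, and they do not say that libraries of a group came from separate mice, so each p-value measures the spread between these libraries, which may be technical. The 5-month mdx libraries carry library numbers either below ns54 or from ns54 on, and in 5-month comparisons the 2 sets are given apart unless they are said to be pooled: 4 later and 3 earlier libraries in FDB, 3 and 4 in SOL, and 4 and 2 in EDL. What the number stands for (a run, a date or a cohort) is unstated in the labels and files, so a difference between the 2 sets cannot be told apart from whatever else set them apart.

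Muscle holds Schwann cells along its intramuscular nerve branches, where myelinating cells wrap motor and sensory axons, and at the neuromuscular junction, where terminal Schwann cells cap the nerve ending. SOX10, a transcription factor of the neural crest and of glia, is required from the first glial precursors on and acts with EGR2 (also called KROX20), the transcription factor that switches Schwann cells to myelination, on the genes of the sheath. Those genes make the proteins of compact myelin (MBP and PMP22), of its non-compact and axon-facing parts (MAG and NCMAP) and of the outer Schwann cell membrane, where periaxin (PRX) binds the dystroglycan complex. S100B is a calcium-binding protein long used to stain Schwann cells. In whole muscle, fewer Schwann cells and less RNA of a gene per Schwann cell cannot be told apart.

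RefSeq promoter windows of 300 bases (250 before and 50 after an annotated start, build GRCm38.p6) were matched by symbol to 6 of the 8 genes, 16 windows in all. They are shown because, within sets of libraries, Egr2 varied apart from the other genes. Each was searched on both strands for the SOX words ACAAAG and ACAATG, for the EGR words GCGTGGGCG and GCGGGGGCG, and for the CArG box, known as the binding word of serum response factor at many immediate early genes. The CArG box was added to the search after the sequence and the values of Egr2 had been seen. Capitals mark a match, and each start site is the first base after the initial 250.

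The Mag window at chr7:30914814-30915113 (minus strand) held the SOX word ACAAAG, read on the other strand as CTTTGT, at position −126 from the start. The Prx window at chr7:27499074-27499373 (plus) and the Ncmap window at chr4:135398178-135398477 (minus) held none of the words. The Egr2 window at chr10:67537619-67537918 (plus) held a CArG box at −72.
Mag: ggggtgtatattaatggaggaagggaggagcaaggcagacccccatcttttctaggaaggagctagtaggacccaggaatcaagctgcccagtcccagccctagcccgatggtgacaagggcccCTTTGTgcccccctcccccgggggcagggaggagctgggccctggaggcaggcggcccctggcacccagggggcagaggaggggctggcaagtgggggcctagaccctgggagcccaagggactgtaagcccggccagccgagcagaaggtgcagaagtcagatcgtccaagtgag
Prx: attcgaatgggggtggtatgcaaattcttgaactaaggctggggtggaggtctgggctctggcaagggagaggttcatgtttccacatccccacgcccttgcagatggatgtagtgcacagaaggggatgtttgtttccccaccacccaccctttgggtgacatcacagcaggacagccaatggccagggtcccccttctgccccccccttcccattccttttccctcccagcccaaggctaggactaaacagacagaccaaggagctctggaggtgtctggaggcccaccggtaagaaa
Ncmap: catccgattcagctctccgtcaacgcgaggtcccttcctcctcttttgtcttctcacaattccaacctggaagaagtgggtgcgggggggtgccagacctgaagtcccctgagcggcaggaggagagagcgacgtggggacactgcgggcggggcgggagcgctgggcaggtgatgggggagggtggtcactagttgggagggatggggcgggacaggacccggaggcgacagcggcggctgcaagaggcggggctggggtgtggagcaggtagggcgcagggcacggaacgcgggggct
Egr2: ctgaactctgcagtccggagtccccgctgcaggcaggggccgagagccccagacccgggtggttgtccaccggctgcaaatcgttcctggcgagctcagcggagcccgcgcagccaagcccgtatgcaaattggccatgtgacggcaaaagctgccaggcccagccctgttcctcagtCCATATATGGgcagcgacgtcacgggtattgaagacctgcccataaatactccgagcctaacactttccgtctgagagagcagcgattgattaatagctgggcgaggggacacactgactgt

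Among the 16 windows, 2 held a SOX word, both of them windows of Mag that overlap each other, against 28.6% of all 32851 promoter windows. No window of the 6 genes held an EGR word, which 3.47% of all windows held. A CArG box was present in 4 windows, all among the 5 of Egr2, of which 3 overlap and share a single box, against 1.63% of all windows. Because the CArG box was chosen after the Egr2 sequence had been seen, these shares are no test of enrichment. No matches of different words overlapped in these windows. The words are descriptions of these letters only.

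The values are RPKM (reads scaled to transcript length and to the mapped reads of the library) as the authors deposited them. Differences are given on the log2(RPKM + 1) scale, which understates the change of genes near or below 1 RPKM, with a standard error (SE) and a limma p-value, Benjamini-Hochberg adjusted across the 12541 genes tested. "Rose" and "fell" are used for an adjusted p below 0.05. Where libraries are said to lie apart or not to overlap, the share of all genes that did so is not given. One model used 12 group means with the 5-month mdx libraries pooled, and another used 15 means with those libraries split at ns54. The spread of the first includes the gap between the 2 sets of mdx libraries. Depth, recovered approximately from the steps between low values, ranged between 20.3 M (megareads) in the shallowest library and 66.7 M in the deepest, around a median of 50.3 M, and within groups the Pearson r between libraries across genes was 0.986 to 0.9986. Dmd was 1.54 to 3.91 RPKM in mdx libraries and 6.42 to 12.1 RPKM in wt libraries, so every library matched its genotype label. The median of all genes lay 0.10 to 0.24 above 0 (log2) in every mdx minus wt comparison, and values "relative to all genes" below have that median taken off.

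The 8 genes lie at separate places in the genome (GENCODE M21, GRCm38): Ncmap at chr4:135369576-135398227 on the minus strand, Prx at chr7:27499324-27520214 (plus), Mag at chr7:30899176-30914873 (minus), Egr2 at chr10:67535475-67542188 (plus), S100b at chr10:76253853-76261159 (plus), Pmp22 at chr11:63128982-63159547 (plus), Sox10 at chr15:79154908-79165240 (minus) and Mbp at chr18:82475146-82585637 (plus). They differed widely in level. Over all 55 libraries Pmp22 averaged 49.2 RPKM, Mbp 9.45, Prx 5.26, Ncmap 3.11, Sox10 1.44, Egr2 1.17, S100b 1.11 and Mag 0.669 RPKM. For Pmp22 this came to a median of about 2300 reads in a library and at least 820. Mag rested on a median of about 39.1 reads and in the poorest library on 11, and S100b on 46.5 and 10.7. Use of strand in the counting is not given in the sources used here, and reads of Prx cannot be told apart from those of the antisense gene Gm15541 over 5405 bases, nor those of S100b from Dip2a over 1731 bases. Pseudogenes on the other strand overlap Mbp (Rpl21-ps8, 483 bases) and Ncmap (Gm12991, 78 bases).

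**Figure D1:**
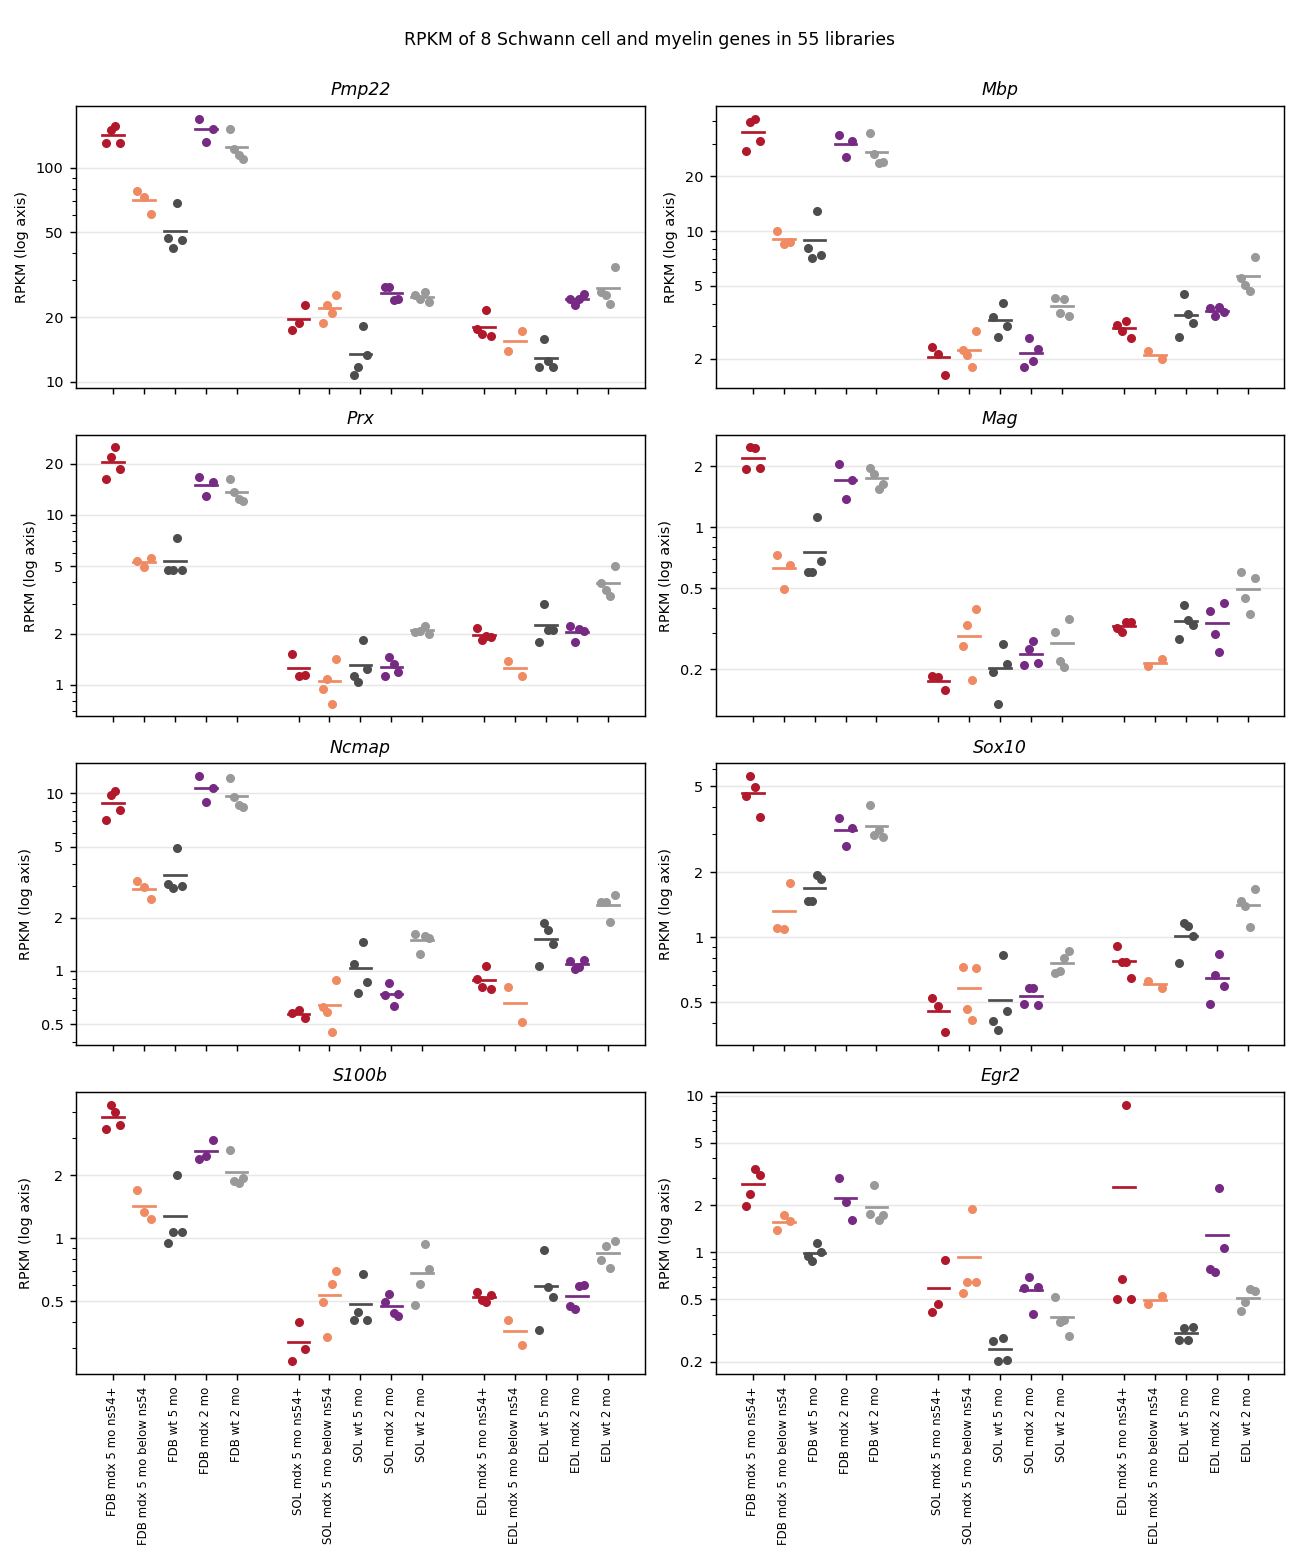
Level of each of the 8 genes in every library, in RPKM on a log axis, with 1 point per library and a line at the group mean. From left to right are FDB, SOL and EDL, each with 5-month mdx libraries ns54 and later, 5-month mdx libraries below ns54, 5-month wt, 2-month mdx and 2-month wt; the later mdx FDB libraries of Mbp (27.4 to 41.4 RPKM) lie above the earlier ones (8.5 to 9.99) and above 5-month wt (7.11 to 12.9).

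The first question was whether these genes differed between mdx and wt muscle at 5 months, and FDB gave the clearest difference, which depended on the set of mdx libraries. In the libraries numbered ns54 and later all 8 genes rose against wt (15 means; 57.3% of all genes tested rose in this comparison), by 2.52-fold to 3.93-fold in mean RPKM, and for all 8 the later mdx libraries lay above every wt library. The share of all genes whose libraries lay apart in this way is not given. In the mdx libraries below ns54 only Pmp22 of the 8 rose (44.4% of all genes rose), and the other 7 did not pass. With the 7 mdx libraries pooled (12 means), all 8 rose (53.1% of all genes rose), but the libraries of 7 of the 8 overlapped between mdx and wt. The pooled count was 5 with median-of-ratios scaling, 4 with quantile normalization and 3 with only the 2 groups compared in the model. The shares of all genes called under these settings are not given, so a general loss of calls cannot be told apart from a loss in these genes. Because a majority of all genes also rose, the count of 8 in the later libraries says less than the sizes, which were above the 0.21 by which the median gene moved.

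Mbp, the protein that binds the inner membrane faces of compact myelin together, showed the largest difference. It was 27.4, 39.6, 41.4 and 31.1 RPKM in the mdx libraries ns54 and later, and 9.99, 8.5 and 8.69 RPKM in the earlier mdx libraries. Wt libraries gave 8.1, 7.11, 12.9 and 7.42 RPKM. The later mdx libraries lay above all others. The earlier ones lay within the wt range, below its highest library (12.9 RPKM) and above the rest. The difference from wt was 1.88 ± 0.14 (SE, adjusted p = 6.23e-15 by limma; 1.67 relative to all genes) for the later and 0.06 ± 0.15 (adjusted p = 0.764) for the earlier libraries. Pooled, it was 1.10 ± 0.25 (adjusted p = 0.000227).

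Pmp22, a membrane protein of compact myelin that other tissues also express, was the member that rose in both sets. It was 131, 150, 157 and 131 RPKM in the later and 78, 73.4 and 60.8 RPKM in the earlier mdx libraries, against 46.8, 42.2, 68.4 and 45.9 RPKM in wt. The later libraries lay above all others, and of the earlier ones 2 lay above every wt library and 1 did not. The difference from wt was 1.49 ± 0.13 (adjusted p = 8.62e-13 by limma) in the later and 0.49 ± 0.14 (adjusted p = 0.00418; 0.35 relative to all genes) in the earlier libraries.

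Prx, whose product organises the Schwann cell surface outside the myelin, followed Mbp. It was 16.3, 22, 25 and 18.6 RPKM in the later and 5.34, 4.91 and 5.54 RPKM in the earlier mdx libraries, against 4.75, 4.75, 7.28 and 4.76 RPKM in wt. The earlier mdx libraries all lay below the highest wt library and above the other 3. The later libraries differed from wt by 1.75 ± 0.12 (adjusted p = 3.49e-16 by limma) and the earlier ones by −0.01 ± 0.13 (adjusted p = 0.956).

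Ncmap, a protein of non-compact myelin, was 7.1, 9.75, 10.3 and 8.02 RPKM in the later and 3.21, 2.96 and 2.53 RPKM in the earlier mdx libraries, against 3.1, 2.93, 4.91 and 3.02 RPKM in wt. Mag, an adhesion protein of the membrane that faces the axon, was 1.94, 2.48, 2.45 and 1.97 RPKM in the later and 0.729, 0.499 and 0.655 RPKM in the earlier mdx libraries, against 0.605, 0.599, 1.12 and 0.685 RPKM in wt. Both genes separated the later libraries from all others. The later minus wt differences were 1.13 ± 0.12 for Ncmap (adjusted p = 4.55e-11 by limma) and 0.88 ± 0.07 for Mag (adjusted p = 7.82e-14), and the earlier minus wt differences of −0.19 and −0.10 did not pass (adjusted p = 0.221 and 0.29).

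The transcription factor Sox10 was 4.49, 5.56, 4.95 and 3.62 RPKM in the later and 1.1, 1.09 and 1.78 RPKM in the earlier mdx libraries, against 1.47, 1.48, 1.95 and 1.87 RPKM in wt. It stood at 1.06 ± 0.10 above wt in the later libraries (adjusted p = 3.35e-12 by limma), while its value of −0.22 ± 0.11 in the earlier ones did not pass (adjusted p = 0.0812). S100b was 3.32, 4.32, 4 and 3.47 RPKM in the later and 1.7, 1.33 and 1.23 RPKM in the earlier mdx libraries, against 0.953, 1.07, 2 and 1.07 RPKM in wt. All of the later S100b libraries were above all of the others, with a difference from wt of 1.09 ± 0.10 (adjusted p = 1.35e-12 by limma).

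Egr2 departed from the other 7 in FDB at 5 months. It was 1.98, 2.36, 3.43 and 3.12 RPKM in the later and 1.39, 1.72 and 1.58 RPKM in the earlier mdx libraries, against 0.951, 0.875, 1.15 and 1.01 RPKM in wt. Both sets of mdx libraries lay above every wt library, and it was the single member with that pattern. Its later minus wt difference was 0.88 ± 0.29 (adjusted p = 0.00689 by limma), and its earlier minus wt difference of 0.36 ± 0.31 did not pass (adjusted p = 0.337).

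Set directly against each other, the later mdx FDB libraries were higher than the earlier ones in 7 of the 8 genes (22.7% of all genes were higher), Egr2 being the exception at 0.52 ± 0.31 (adjusted p = 0.212 by limma). Prx was 3.89-fold and Mbp 3.85-fold higher in mean RPKM, Sox10 and Mag 3.52-fold each, Ncmap 3.03-fold, S100b 2.66-fold and Pmp22 2.01-fold. In all 8 genes, Egr2 included, every later library lay above every earlier one. The share of all genes that separated in this way is not given. The same contrast gave no call in EDL (0 of 8 by limma, with 2 at an unadjusted p below 0.05; 1.24% of all genes were called) and none in SOL (0 of 8, with 0 at an unadjusted p below 0.05; 42.7% of all genes were called). In EDL, where the earlier set has 2 libraries, all 8 estimates were positive, and the later libraries lay above the earlier ones in 5 of the 8 genes (Mag, Mbp, Prx, S100b and Sox10), Prx being 1.56-fold higher in mean RPKM. With so few libraries such separation comes easily, and its share among all genes is not given either. The difference between muscles in that gap was not tested.

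**Figure D2:**
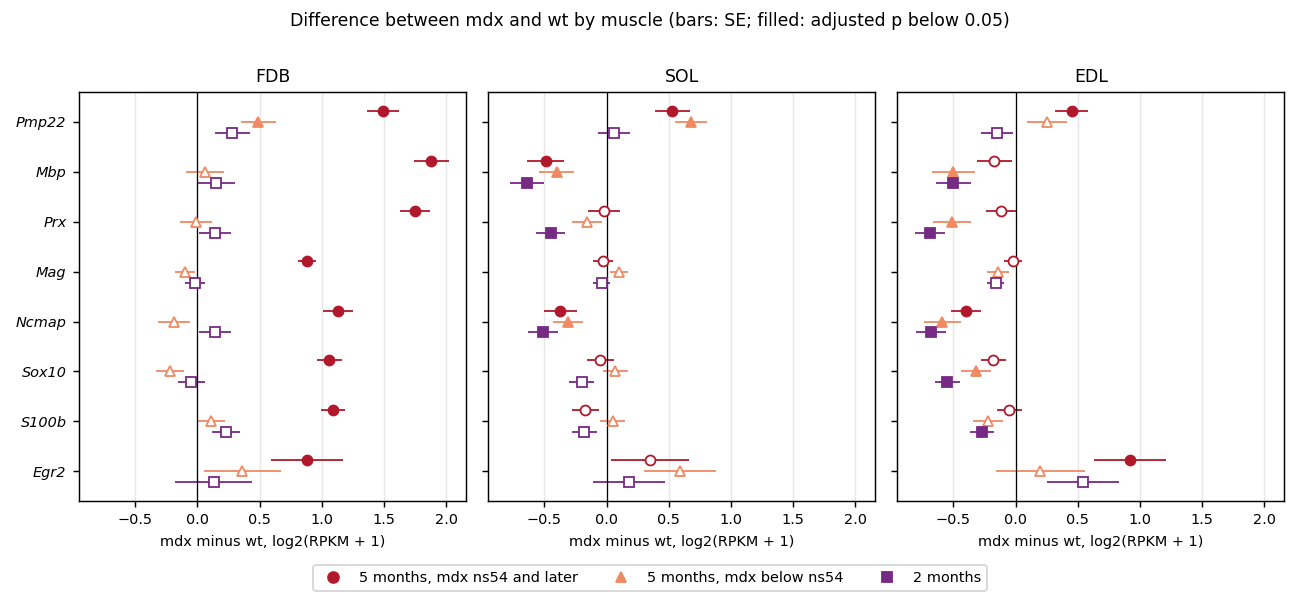
Difference between mdx and wt for each gene in FDB, SOL and EDL on the log2(RPKM + 1) scale from the model with 15 means, with bars for the standard error and filled symbols where the adjusted p was below 0.05. In FDB the 5-month mdx libraries ns54 and later (circles) lie at 0.88 to 1.88 for all 8 genes, while the earlier ones (triangles) lie between −0.22 and 0.49.

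Other genes of the myelin sheath showed the same division in FDB. Of 20 listed sheath genes other than the 8, 16 passed the filter on low values, and 15 of them rose in the later mdx libraries against wt (median 1.14, against 0.21 for all genes), while 2 rose in the earlier ones (median 0.00, against 0.14). In these comparisons 57.3% and 44.4% of all genes rose. Ndrg1, which is mutated in an inherited demyelinating neuropathy, rose by 1.57 ± 0.09 in the later libraries, with means of 51 ± 2.48 RPKM in the later (SD, n = 4) and 21.7 ± 2.51 RPKM in the earlier mdx libraries (SD, n = 3), against 16.6 ± 2.42 RPKM in wt (SD, n = 4). Cnp, a cytoplasmic protein of non-compact myelin, rose by 0.97 ± 0.09, while the scaffold gene Mpp6 was at −0.04 ± 0.05 and did not pass.

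Of 13 tested regulators and lineage genes other than the 8, 12 rose and 1 fell in the later libraries (median 0.78), and 7 rose and 1 fell in the earlier ones (median 0.25). Of all genes, 57.3% and 44.4% rose in the same comparisons, so 7 of 13 is near the background. Nab1 and Nab2, co-regulators that bind EGR proteins, rose in both sets, by 0.66 ± 0.06 and 1.04 ± 0.16 in the later libraries and by 0.42 ± 0.07 and 0.54 ± 0.17 in the earlier ones (limma). Genes of repair and non-myelinating Schwann cells were mostly too low to test. All 4 tested rose in the later libraries (median 0.54) and 2 rose in the earlier ones (0.37), and the 2 were the adhesion genes Ncam1 and Cdh2, which other muscle cells also express. Genes of the perineurium and endoneurium, the sleeves around and between nerve fibres, rose in 7 of 8 cases in the later libraries (median 1.24) and in 2 of 8 in the earlier ones (0.16), with the integrin subunit Itgb4 at 15.9 ± 2.1 RPKM in the later (SD, n = 4) and 3.82 ± 0.223 RPKM in the earlier libraries (SD, n = 3), against 3.34 ± 0.694 RPKM in wt (SD, n = 4).

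Markers of other cell types moved with the same libraries. Adipocyte markers rose in 5 of 5 tested cases in the later libraries (median 2.40) and in 3 in the earlier ones (0.68), with summed levels of 189 to 263 RPKM in the later and 113 to 123 RPKM in the earlier mdx libraries, against 79.2 to 101 RPKM in wt. Endothelial and smooth muscle markers rose in 5 of 5 cases in the later libraries (median 1.09; sums of 169 to 202 RPKM) and in 1 in the earlier ones (median −0.04; 56.2 to 65.8 RPKM), against sums of 42.4 to 52.7 RPKM in wt. Muscle fibre markers fell in 4 of 6 cases in the later libraries (median −0.25), with sums of 22600 to 23500 RPKM in the later and 28800 to 32800 RPKM in the earlier libraries, against 26000 to 28600 RPKM in wt.

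Macrophage and fibroblast markers did not follow that division: 6 of 6 of each rose in both sets, with macrophage medians of 1.60 in the later and 1.63 in the earlier libraries and fibroblast medians of 1.30 and 1.13. Summed macrophage markers were 135 to 162 RPKM in the later and 119 to 166 RPKM in the earlier libraries, against 35.7 to 51 RPKM in wt, and summed fibroblast markers 1320 to 1450 and 1170 to 1560 RPKM, against 509 to 675 RPKM in wt. Keratinocyte markers rose in 2 of 2 tested cases in the later libraries (median 1.86) and in 0 in the earlier ones by limma (0.07). Their sums were 1.53 to 1.78 RPKM in 3 of the later libraries and 373 RPKM in the fourth (ns57), against 1.26 to 1.33 RPKM in the earlier mdx and 0.982 to 1.15 RPKM in wt libraries. Krt5, a defining marker, was at 0 in all 4 wt libraries of 5-month FDB. In ns57 Mbp was 31.1 RPKM, between ns54 and ns55, and Sox10 was 3.62 RPKM, the lowest of the later libraries. Neuron markers rose in 2 of 2 tested cases in the later libraries (median 0.38; sums of 5.5 to 8.63 RPKM) and in 1 in the earlier ones (median 0.06; 3.86 to 5.4 RPKM), against sums of 3.95 to 4.65 RPKM in wt. Tendon markers rose in 2 of 3 cases in the later libraries (median 0.61) and in 3 of 3 in the earlier ones (0.70), and melanocyte markers in 1 of 2 in each set. The part of these other cells in the differences of the 8 genes was not tested.

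**Figure D3:**
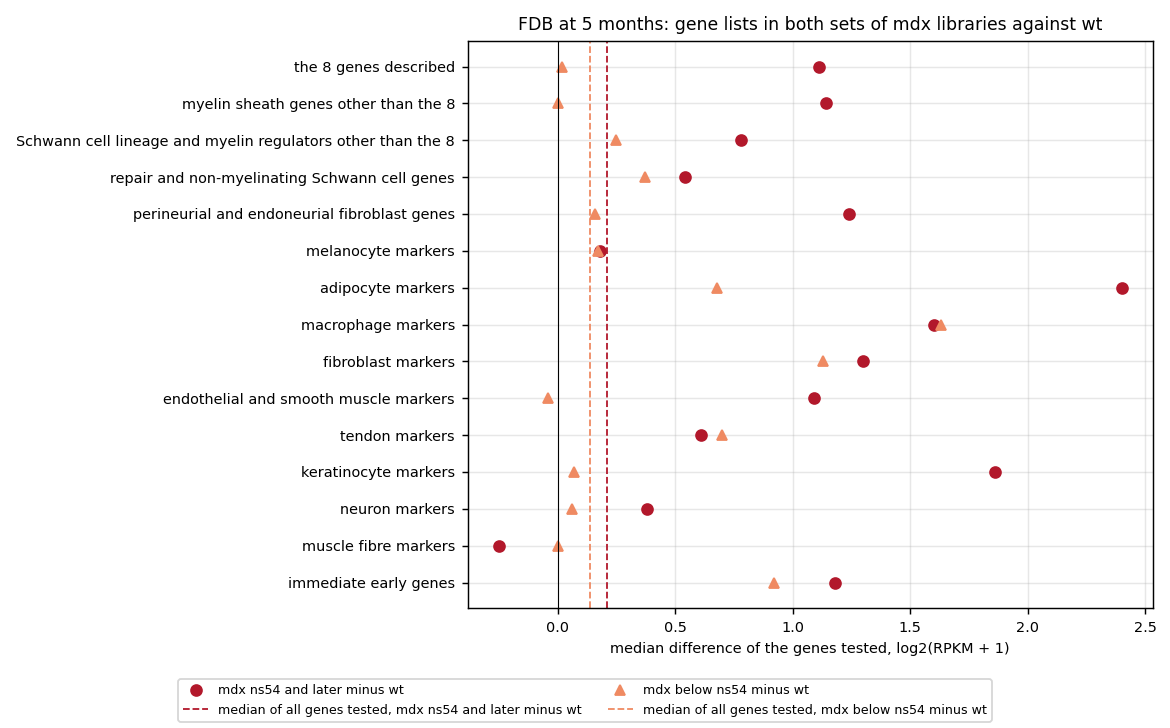
Median difference on the log2(RPKM + 1) scale of the tested genes of each list in FDB at 5 months, for mdx libraries ns54 and later (circles) and below ns54 (triangles), each minus wt, with dashed lines at the medians of all genes (0.21 and 0.14). The 8 genes (1.11 and 0.02) and the other myelin sheath genes (1.14 and 0.00) are far apart between the sets, while macrophage markers (1.60 and 1.63) are not.

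At 2 months FDB gave no call among the 8 genes, with 0 by limma in either model, 1 at an unadjusted p below 0.05 with 15 means and 0 with 12 means, while 44.8% and 34.6% of all genes were called. Mbp was 33.7, 25.4 and 31.2 RPKM in mdx against 34.3, 26.3, 23.7 and 23.9 RPKM in wt, and the libraries of all 8 genes overlapped. The largest estimate was that of Pmp22, at 0.28 ± 0.14 (adjusted p = 0.114 by limma, 15 means).

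Across age, 7 of the 8 genes fell between 2 and 5 months in wt FDB (12 means; 27.3% of all genes fell): mean Mbp at 5 months was 0.328 of its 2-month level (−1.53 ± 0.29, adjusted p = 6.28e-05 by limma), Ncmap 0.359, Prx 0.396, Pmp22 0.406, Mag 0.43, Sox10 0.518 and S100b 0.615. Egr2 was at 0.512 of its 2-month level and did not pass (adjusted p = 0.162). The mdx libraries below ns54 fell from their 2-month group in the same 7 genes (17.2% of all genes fell), with Mbp at −1.62 ± 0.16 and Ncmap at −1.59 ± 0.14. The mdx libraries ns54 and later did not fall in any: 4 rose (Sox10 by 0.45, S100b by 0.41, Prx by 0.41 and Mag by 0.24; 7.16% of all genes rose), and Mbp (0.20), Egr2 (0.21), Pmp22 (−0.09) and Ncmap (−0.27) did not pass. Mbp in the later 5-month mdx libraries, at 27.4 to 41.4 RPKM, thus overlapped its range of 25.4 to 33.7 RPKM in 2-month mdx.

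Tested as a genotype by age difference, with the 5-month mdx libraries pooled, none of the 8 passed in FDB (0 by limma, 4 at an unadjusted p below 0.05; 1.34% of all genes were called). With the later 5-month mdx libraries alone 7 passed with a positive difference (21.8% of all genes did), led by Mbp at 1.72 ± 0.22 and Prx at 1.61 ± 0.18. With the earlier libraries alone none passed (0 by limma, 0 at an unadjusted p below 0.05; 1.85% of all genes were called), and Mbp was at −0.10 ± 0.22. In EDL and SOL the pooled difference gave 0 calls each (1 each at an unadjusted p below 0.05; 5.92% and 14% of all genes were called). With the later libraries alone 3 passed with a positive difference in EDL (Pmp22, Prx and Sox10; 20.4% of all genes did) and 0 in SOL by limma (2 at an unadjusted p below 0.05; 15.8% of all genes were called). With the earlier libraries alone 0 passed in EDL by limma (0 at an unadjusted p below 0.05; 2.23% of all genes were called), and Pmp22 passed with a positive difference in SOL (23.8% of all genes did).

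In EDL and SOL several of the 8 genes were lower in mdx. At 2 months 5 of the 8 genes fell in mdx EDL with 15 means (11.2% of all genes fell), namely Prx, Ncmap, Sox10, Mbp and S100b. With 12 means, 3 of them (Ncmap, Sox10 and Prx) fell (8.69% of all genes). In mdx SOL 3 fell with 15 means (Mbp, Ncmap and Prx; 10.1% of all genes fell), and with 12 means none passed (0 by limma, 2 at an unadjusted p below 0.05; 39.9% of all genes were called in either direction).

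The values in EDL at 2 months were 2.23, 1.79, 2.12 and 2.08 RPKM in mdx against 3.95, 3.59, 3.34 and 5.01 RPKM in wt for Prx. The 2 groups did not overlap, and the difference was −0.69 ± 0.12 (adjusted p = 4.91e-06 by limma with 15 means and 0.03 with 12; −0.83 relative to all genes). For Ncmap they were 1.14, 1.03, 1.05 and 1.15 RPKM in mdx against 2.45, 2.44, 1.89 and 2.68 RPKM in wt, and for Sox10 0.492, 0.666, 0.833 and 0.593 RPKM in mdx against 1.47, 1.39, 1.12 and 1.67 RPKM in wt. These too did not overlap, with mean levels in mdx at 0.462 and 0.458 of those in wt. Mbp was 3.78, 3.41, 3.83 and 3.59 RPKM in mdx against 5.52, 5.09, 4.72 and 7.24 RPKM in wt, a difference of −0.50 ± 0.14 that passed with 15 means (adjusted p = 0.00252 by limma) and missed the threshold with 12 (adjusted p = 0.142). S100b fell by 0.27 (adjusted p = 0.0185 by limma with 15 means), Mag at −0.16 and Pmp22 at −0.15 did not pass, and neither did Egr2 at 0.54.

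In SOL at 2 months Mbp was 1.8, 2.58, 1.94 and 2.27 RPKM in mdx against 4.32, 3.57, 4.25 and 3.43 RPKM in wt. The groups were apart, with a difference of −0.64 ± 0.14 (adjusted p = 0.00026 by limma with 15 means and 0.0701 with 12). Ncmap was 0.732, 0.859, 0.637 and 0.745 RPKM in mdx against 1.61, 1.24, 1.57 and 1.53 RPKM in wt, so the mdx mean was 0.5 of the wt mean. Prx was 1.13, 1.45, 1.32 and 1.19 RPKM in mdx against 2.05, 2.08, 2.23 and 2 RPKM in wt. Pmp22, by contrast, was 27.8, 27.9, 24.2 and 24.4 RPKM in mdx against 25.6, 24.5, 26.2 and 23.5 RPKM in wt, overlapping ranges with a difference of 0.06 ± 0.13.

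With 15 means, other sheath genes fell alongside in 10 of 16 cases in EDL (median −0.31, against 0.14 for all genes). In SOL 5 of 16 fell and 2 rose (median −0.16, against 0.10). Of all genes, 11.2% fell in EDL and 10.1% in SOL. Regulators and lineage genes gave 5 that rose and 3 that fell of 13 in EDL and 5 that rose and 0 that fell in SOL. Of all 12541 genes, 5915 rose in EDL and 4759 in SOL, and the rises among the regulators were near those shares. Macrophage markers rose in 6 of 6 cases in both muscles (medians 1.49 and 1.78). Their summed levels were 96.2 to 173 RPKM in mdx against 29.8 to 42.6 RPKM in wt EDL, and 76.2 to 94 RPKM in mdx against 14 to 33.9 RPKM in wt SOL. The part of these cells in the falls was not tested.

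At 5 months Ncmap was again lower in mdx in both muscles. In EDL it was 0.9, 0.81, 1.06 and 0.791 RPKM in the later and 0.81 and 0.514 RPKM in the earlier mdx libraries, against 1.06, 1.86, 1.71 and 1.41 RPKM in wt. In the later EDL libraries Pmp22 and Egr2 rose and Ncmap fell (15 means; 64.1% of all genes rose and 8.9% fell), and in the earlier ones Mbp, Ncmap, Prx and Sox10 fell (9.33% of all genes fell). Pooled, Egr2 and Pmp22 rose (12 means; 60.2% of all genes rose) and Ncmap fell by 0.46 (adjusted p = 0.0338 by limma; 8.52% of all genes fell). The pooled calls each lost their threshold when some single library was left out, Ncmap without ns40, ns46 or ns47 among them. Pmp22 was 0.06 with median-of-ratios scaling and 0.17 with quantile normalization and then did not pass.

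In SOL at 5 months Mbp and Ncmap fell in both sets and Pmp22 rose in both. Mbp was 2.32, 2.13 and 1.63 RPKM in the later and 2.23, 2.08, 1.79 and 2.84 RPKM in the earlier mdx libraries, against 3.38, 2.63, 4.03 and 3.03 RPKM in wt, and Pmp22 was 17.4, 18.9 and 22.9 RPKM in the later and 18.9, 22.9, 21 and 25.5 RPKM in the earlier libraries, against 10.8, 11.7, 18.3 and 13.4 RPKM in wt. Mbp differed from wt by −0.49 ± 0.15 in the later and −0.40 ± 0.14 in the earlier libraries (adjusted p = 0.00559 and 0.0119 by limma), and Pmp22 by 0.53 ± 0.14 and 0.68 ± 0.13 (adjusted p = 0.00178 and 1.93e-05). Ncmap fell by 0.37 in the later and 0.31 in the earlier libraries (adjusted p = 0.0134 and 0.0189 by limma). In the later libraries these were 1 gene higher and 2 lower of the 8 (15 means; 50.6% of all genes rose and 9.7% fell), and in the earlier ones likewise 1 higher and 2 lower (52.4% rose and 16.2% fell). Pooled, Pmp22 alone passed (12 means; 0.62 ± 0.17, adjusted p = 0.00151; 52.9% of all genes rose), and Mbp at −0.44 ± 0.25 missed the threshold (adjusted p = 0.126).

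Whether the genotype effect differed between muscles was tested directly. At 5 months the mdx minus wt difference was larger in FDB than in EDL for 6 of the 8 genes (7.14% of all genes were called in that direction), by 1.38 ± 0.36 for Mbp, 1.25 ± 0.35 for Prx, 1.03 ± 0.27 for Ncmap, 0.78 ± 0.21 for S100b, 0.74 ± 0.26 for Sox10 and 0.67 ± 0.24 for Pmp22 (adjusted p = 0.00563 for Mbp and 0.0458 for Pmp22 by limma). It was larger in FDB than in SOL for 4 (Mbp by 1.54, Prx by 1.10, Ncmap by 0.90 and S100b by 0.71; 13.7% of all genes). With the later mdx libraries alone 7 of the 8 differed between FDB and EDL (15% of all genes were called in that direction) and 7 between FDB and SOL (18.5% of all genes), all but Egr2, with Mbp at 2.04 ± 0.21 and 2.37 ± 0.22.

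With the earlier mdx libraries alone none of the 8 differed between FDB and EDL (0 by limma, 3 at an unadjusted p below 0.05; 13% of all genes were called) or between FDB and SOL (0, 1 unadjusted; 34.1% of all genes). In that set Mbp was at 0.56 ± 0.23 between FDB and EDL (adjusted p = 0.102). The calls for Pmp22 and Sox10 in the pooled FDB minus EDL contrast were lost when single libraries were left out, in 15 of 21 cases for Pmp22 and 10 of 21 for Sox10. With only the groups compared in the model, 0 of the 8 were called by limma in FDB minus EDL (5 at an unadjusted p below 0.05) and 1 in FDB minus SOL. SOL and EDL did not pass against each other at 5 months (0 by limma, 0 unadjusted; 19% of all genes were called) or at 2 months (0 and 0; 2.35%). At 2 months FDB minus EDL gave 0 calls (3 unadjusted; 5.33% of all genes) and FDB minus SOL 0 (1 unadjusted; 1.55%).

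The highest value of Egr2 in the study was that of a single mdx library of EDL. In 5-month EDL it was 0.501, 0.677, 8.73 and 0.501 RPKM in the later and 0.468 and 0.523 RPKM in the earlier mdx libraries, against 0.275, 0.33, 0.277 and 0.335 RPKM in wt. All 6 mdx libraries lay above all 4 wt libraries, and one of them, ns64, lay far above the rest. The pooled difference of 0.68 ± 0.28 (adjusted p = 0.0286 by limma) was 0.23 without ns64 (adjusted p = 0.204), and it missed the threshold with median-of-ratios scaling (0.59), quantile normalization (0.40) or only the groups compared in the model. In 5-month SOL Egr2 was 0.418, 0.468 and 0.899 RPKM in the later and 0.546, 0.65, 1.88 and 0.646 RPKM in the earlier mdx libraries, against 0.273, 0.201, 0.283 and 0.205 RPKM in wt, again with no overlap, and the pooled difference of 0.49 ± 0.27 did not pass (adjusted p = 0.11 by limma).

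Egr2 is also an immediate early gene, one that many cell types switch on within minutes of a stimulus. At each age its highest mdx EDL library was also the highest of that group in the sum of other immediate early genes. The summed level of 8 such genes (Fos, Fosb, Junb, Egr1, Egr3, Ier2, Nr4a1 and Atf3) was 456 RPKM in ns64, with 109, 122 and 187 RPKM in the other later and 174 and 91.7 RPKM in the earlier mdx libraries of EDL, against 42.6 to 46.9 RPKM in 5-month wt EDL. Below the top library the order did not hold: the next highest sum in 5-month mdx EDL, 187 RPKM in ns65, came with an Egr2 of 0.501 RPKM. In 2-month mdx EDL the highest Egr2, 2.57 RPKM in ns35, also came with the highest sum, 175 RPKM. In 2-month wt FDB this was not so: ns10, with an Egr2 of 2.69 RPKM, had a sum of 87.3 RPKM, against 82.1 to 174 RPKM in the other 3. In 5-month FDB 6 of the 8 immediate early genes rose in the later mdx libraries (median 1.18) and 5 in the earlier ones (0.92), which stood beside rises in 57.3% and 44.4% of all genes. Over the 55 libraries, after the mean of each of the 15 sets had been taken off, the Pearson r with Egr2 was 0.843 for Fosb, 0.803 for Ier2, 0.796 for Egr3, 0.753 for Egr1, 0.682 for Junb, 0.648 for Fos, 0.592 for Atf3 and 0.191 for Nr4a1. Without ns64 (54 libraries) it was 0.669 for Junb, 0.582 for Egr1, 0.581 for Fos, 0.547 for Fosb and 0.0299 to 0.486 for the other 4. The same genes had an r of 0.109 to 0.259 with the mean of the other 7 Schwann cell genes. These correlations are descriptions: the points share muscle, library composition and depth.

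**Figure D4:**
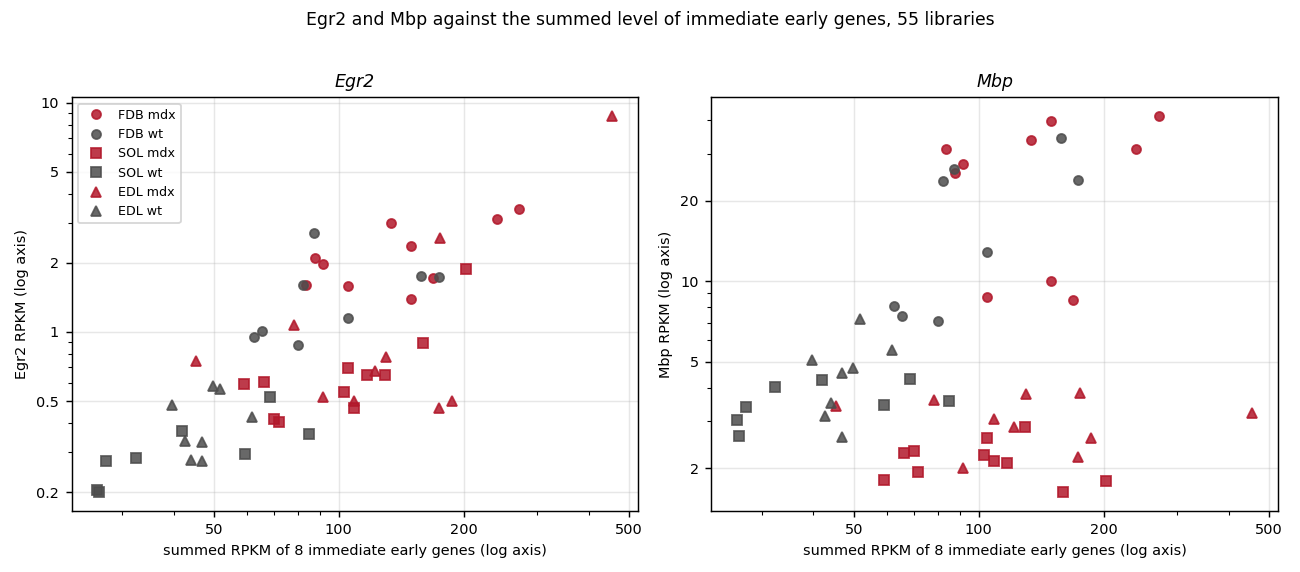
Level of Egr2 (left) and Mbp (right) in RPKM against the summed RPKM of 8 immediate early genes in the 55 libraries, log axes, with red symbols for mdx and grey for wt and circles, squares and triangles for FDB, SOL and EDL. The library ns64 (456 RPKM of immediate early genes) has the highest Egr2 of all, 8.73 RPKM, while its Mbp of 3.21 RPKM lies with the other later EDL libraries (2.6 to 3.04 RPKM).

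In wt muscle the 8 genes were most abundant in FDB. At 2 months all 8 were higher in FDB than in SOL (52.2% of all genes were) and than in EDL (56.7% of all genes). Against SOL the ratio of means was 6.95 for Mbp, 6.54 for Ncmap, 6.5 for Prx, 6.48 for Mag, 5.05 for Egr2, 5.01 for Pmp22, 4.3 for Sox10 and 3.02 for S100b, with a difference for Mbp of 2.51 ± 0.29 (adjusted p = 1.62e-10 by limma). Every wt FDB library lay above every wt SOL and EDL library of that age in all 8 genes. At 5 months all 8 were still higher in FDB than in SOL (49.5% of all genes were), although Egr2 passed narrowly (adjusted p = 0.043 by limma) and the count was 7 whichever of the 8 libraries was left out. With 12 means 6 were higher than in EDL (57.6% of all genes), while Sox10 (0.42 ± 0.20, adjusted p = 0.058) and Egr2 (0.61 ± 0.30, adjusted p = 0.067) did not pass. With 15 means 7 were higher than in EDL (60.5% of all genes), Sox10 among them at 0.42 ± 0.10 (adjusted p = 0.000251 by limma), and Egr2 missed the threshold (adjusted p = 0.0526). At this age too every wt FDB library lay above every wt EDL and SOL library in all 8 genes. The share of all genes that separated in this way is not given at either age, so these counts cannot be set against it. FDB was 2.63-fold to 4.15-fold higher than SOL in mean RPKM at that age.

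Between SOL and EDL of wt mice, Prx was lower in SOL at 2 months (2.05, 2.08, 2.23 and 2 RPKM in SOL against 3.95, 3.59, 3.34 and 5.01 RPKM in EDL; −0.67 ± 0.27, adjusted p = 0.0336 by limma), the single call of the 8 with 12 means (19.8% of all genes were lower). With 15 means 5 were lower in SOL: Prx at −0.67, Sox10 at −0.45, Mbp and Ncmap at −0.43 each and Mag at −0.24 (22.5% of all genes were lower). At 5 months none passed with 12 means (0 by limma, 1 at an unadjusted p below 0.05; 54.4% of all genes were called), while Prx (−0.49), Sox10 (−0.41) and Ncmap (−0.30) were lower in SOL with 15 means (19.6% of all genes were lower). With age, and with 12 means, Pmp22 was the single gene of the 8 that fell in wt EDL (by 1.01, adjusted p = 0.000112 by limma; 21.2% of all genes fell) and in wt SOL (by 0.86, adjusted p = 0.00121; 13.7% of all genes fell). With 15 means 5 fell in wt EDL (Pmp22, Prx at −0.62, Mbp at −0.58, Ncmap at −0.43 and Sox10 at −0.26; 28.9% of all genes fell) and 2 in wt SOL (Pmp22 and Prx at −0.43; 19.9% of all genes fell). Pmp22 was 11.8, 15.8, 12.5 and 11.8 RPKM at 5 months against 26.3, 25.4, 23.2 and 34.5 RPKM at 2 months in wt EDL, with no overlap.

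Ranked by group median over the 12 groups, with the 5-month mdx libraries pooled, the 4 FDB groups held the first 4 places for every one of the 8 genes, and wt FDB at 5 months was the lowest of the 4 each time. With the 5-month mdx libraries split, the 5 FDB sets held the first 5 places for 7 of the 8 genes: the median of Sox10 in the earlier mdx FDB set was 1.1 RPKM, below 2-month wt EDL at 1.43 RPKM. That earlier set, and not wt at 5 months, was then the lowest of FDB for Sox10 and Ncmap. For Mbp the medians were 31.2 RPKM in 2-month mdx FDB, 27.4 in 5-month mdx FDB, 25.1 in 2-month wt FDB and 7.76 in 5-month wt FDB, followed by 5.3 in 2-month wt EDL and 3.91 in 2-month wt SOL. The first 3 overlapped each other in order, and 2-month wt FDB did not overlap 5-month wt FDB. The lowest 6 groups, from 2-month mdx EDL (3.68 RPKM) to 2-month mdx SOL (2.1 RPKM), each overlapped the next.

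The genes other than Egr2 varied together. Over the 12 group means of log2(RPKM + 1), the 21 pairs of the other 7 had a Pearson r of 0.922 to 0.994 with a median of 0.98, and within the 15 sets, over 55 libraries with the mean of each set taken off, of 0.435 to 0.911 with a median of 0.713. Pairs with Egr2 had an r of 0.759 to 0.877 over group means and of −0.0194 to 0.301 within sets. Against the mean of the rest, Ncmap (0.91), Mbp (0.904) and Prx (0.882) were closest within sets and Egr2 (0.0989) was farthest. Values over group means share the difference between muscles, and values within sets share each library's composition and depth.

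Proportions among the genes were set out as ratios to Mbp, with the 9 sets of mdx libraries each against wt of the same muscle and age. The ranges did not overlap in 9 of the 9 cases for Pmp22, 7 for Egr2, 5 for Ncmap, 4 for Sox10, 3 for Mag, 2 for Prx and 0 for S100b. How often ratios of other genes to Mbp separate is not given. Mbp itself differed between mdx and wt in several of these sets, so a ratio can separate where only Mbp differed. The ratio of Pmp22 to Mbp in RPKM was 10.8 to 15.5 in mdx and 5.91 to 6.87 in wt SOL at 2 months, and 7.48 to 14 in the later and 8.46 to 11.7 in the earlier mdx libraries, against 3.18 to 4.53 in wt, at 5 months. In EDL it was 6.36 to 7.15 in mdx and 4.77 to 4.99 in wt at 2 months. In 5-month FDB it was 3.78 to 4.78 in the later and 7 to 8.63 in the earlier mdx libraries, against 5.31 to 6.19 in wt, so the sets lay on either side of wt. The ratio of Ncmap to Mbp in 5-month FDB was 0.246 to 0.259 in the later and 0.291 to 0.348 in the earlier mdx libraries, against 0.382 to 0.412 in wt. That of Prx to Mbp was 0.33 to 0.738 over all libraries, and in 5-month FDB the ranges of the 3 sets overlapped.

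Measured against the mean z-score of the 8, the genes whose pattern over the 12 group means was most like theirs were Bcas1 (r = 0.995), Egfl8 (0.994), Gpr37l1 (0.994), Kcna2 (0.993), Fxyd3 (0.992), Cldn19 (0.991), Clcn2 (0.991) and Mal (0.991). Within sets, over 55 libraries, the most alike included Pllp (0.821), Mal (0.81), Ugt8a (0.803), C2 (0.798), Cldn19 (0.795), Cadm4 (0.788) and Vat1l (0.781). Cldn19, Mal, Pllp, Ugt8a and Cadm4 were among the listed sheath genes. Mal and Cldn19 were among the 8 most alike by both measures.

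The authors' deposited table gives one mdx over wt ratio per gene, muscle and age, with the 5-month mdx libraries in a single value. For Mbp the ratio in the authors' deposited table was 2.04 in FDB, 0.662 in SOL and 0.74 in EDL at 5 months, and 1.12, 0.56 and 0.661 at 2 months. For Ncmap the authors' deposited table has 1.46, 0.626 and 0.544 at 5 months and 1.11, 0.531 and 0.487 at 2 months. Its 5-month FDB ratio for Mbp lies between the 3.93-fold of the later and the 1.02-fold of the earlier libraries computed here from mean RPKM. With the sets pooled, mean RPKM gave 2.68-fold where the authors' ratio is 2.04, so the 2 measures are not alike.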

How the data were processed

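Gene expression in 55 mouse muscle libraries was measured by RNA sequencing. Per the labels' protocols, Trizol and a PureLink column were used for extraction, and poly(A) selection (NEBNext) preceded library preparation on a Mondrian SP (NuGEN). The authors mapped reads to mm10 with TopHat and calculated the deposited RPKM in Partek, per the file headers. Versions in the submitters' processing notes are TopHat2 2.1.0, Partek 6.6 and CASAVA 1.8.2. Annotation, use of strand and treatment of multi-mapping reads: not given in the sources used here. A second table holds the authors' deposited ratio of mdx to wt. Each library was placed in its group from the column names and labels.

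RPKM are not counts, so no count test was run. For the 12541 genes averaging 0.5 RPKM or more, log2(RPKM + 1) was fitted with limma 3.58.1 (lmFit, eBayes with trend) in R 4.3.3, with 12 group means or with 15 means (mdx at 5 months split at ns54). The model with 15 means, for comparisons that do not involve 5-month mdx libraries, was added after the data had been seen. P-values were adjusted over genes within each contrast, with a threshold of 0.05. All 8 genes passed the filter. Tables and figures were made with Python 3.11.15, pandas 2.3.3, numpy 2.4.6 and matplotlib 3.10.9. Depth was recovered from 3261 genes shorter than 1500 bases by the steps in their low values; 77.2% to 86.5% of these came within 0.1 of whole reads, and read numbers are approximate. No 2 libraries held identical values. The model was tested on simulated data.

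Alternatives were median-of-ratios scaling, quantile normalization, a pseudocount of 0.1, no filter (21826 genes), sample weights, only the groups compared, either set of 5-month mdx libraries alone, and leaving out each library. Named genes are the 8, up to 4 of each list by mean RPKM, the 8 most alike by each measure, and Dmd; Fosb, Egr1, Egr3 and Ier2 were named after their values had been seen, and 1 gene that this rule names is not reported here. The 8 genes and the lists were chosen with earlier results of these data known.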

Additional observations from a re-analysis of the deposited data

Results flagged for a closer look

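Among 88 combinations of a gene with a group of 4 to 7 libraries, 10 held a library whose gap to the others was over the 95% critical value of Dixon's test, where chance gives about 1 in 20 groups. In 5-month wt FDB the library ns15 was highest in Prx (7.28 RPKM), Ncmap (4.91), S100b (2) and Mag (1.12), so 4 of the 10 are a single library. It was also the highest of that group, without being flagged, in Mbp (12.9 RPKM), Pmp22 (68.4), Sox10 (1.95) and Egr2 (1.15). The others were S100b in 2-month wt FDB (ns09, 2.63 RPKM) and 5-month wt SOL (ns31, 0.674), Ncmap in 5-month mdx SOL (ns53, 0.891), and Egr2 in 5-month mdx EDL (ns64, 8.73), 2-month wt FDB (ns10, 2.69) and 5-month mdx SOL (ns52, 1.88).

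Of 72 tests of a difference in genotype effect between ages or muscles, 10 passed, all at 5 months and all larger in FDB. Against EDL they were Mbp (1.38), Prx (1.25), Ncmap (1.03), S100b (0.78), Sox10 (0.74) and Pmp22 (0.67), and against SOL Mbp (1.54), Prx (1.10), Ncmap (0.90) and S100b (0.71). None passed with the mdx libraries below ns54 alone, where 0 of the 8 were called by limma in either contrast, with 3 at an unadjusted p below 0.05 against EDL and 1 against SOL.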

How the results depend on the processing

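The 48 mdx minus wt values of single genes were followed over all settings other than leaving out a library. Of these cases 277 kept their call, 55 passed where they had not, 24 no longer passed and 4 that had passed reversed in sign. Changes of sign among values that passed at neither setting were not counted as reversed. An example is Mag in 5-month SOL, at 0.04 pooled and −0.03 with libraries ns54 and later. The 4 reversed values were in 5-month FDB with the mdx libraries below ns54 alone, at −0.22 for Sox10, −0.19 for Ncmap, −0.10 for Mag and −0.01 for Prx, none of which passed.

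Counts of the 8 genes called moved as follows, and the cause was not tested. The share of all genes called under each alternative is not given beside them, so these counts cannot be set against a general gain or loss of calls. In 5-month FDB 8 became 5 with median-of-ratios scaling, 4 with quantile normalization, 3 with only the groups compared and 1 with the mdx libraries below ns54; 5-month EDL (3) had 6 with quantile normalization and 1 with no filter; 5-month SOL (1) had 3 with either scaling, with a pseudocount of 0.1 or with libraries ns54 and later, and 4 with only the groups compared or libraries below ns54. At 2 months FDB (0) had 2 with sample weights. EDL (3) had 5 with 15 means or median-of-ratios scaling and 6 with quantile normalization or only the groups compared. SOL (0) had 3 with 15 means or sample weights, 2 with median-of-ratios scaling or a pseudocount of 0.1, and 4 with quantile normalization or only the groups compared.

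Genotype by age (0 in each muscle) had 8 with sample weights and 7 with libraries ns54 and later in FDB, 3 with those libraries in EDL and 1 with libraries below ns54 in SOL. Genotype by muscle at 5 months had 0 of 6 (FDB minus EDL) with only the groups compared or libraries below ns54, and 7 with sample weights or libraries ns54 and later, 1 with only the groups compared and 0 with libraries below ns54, in place of 4, in FDB minus SOL. At 2 months FDB minus EDL (0) had 4 with sample weights and 5 with only the groups compared, and FDB minus SOL (0) had 4 and 3.

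SOL minus EDL in wt at 2 months (1) had 5 with 15 means, sample weights or only the groups compared, 4 with a pseudocount of 0.1, 3 with either scaling and 0 with no filter; at 5 months (0) it had 3 with 15 means, sample weights or only the groups compared, 2 with median-of-ratios scaling or a pseudocount of 0.1 and 1 with quantile normalization. With age, wt EDL (1) had 5 with 15 means, 6 with only the groups compared, 4 with sample weights and 2 with a pseudocount of 0.1, and wt SOL (1) had 2 with 15 means, sample weights or only the groups compared. The later minus earlier contrast in SOL (0) had 2 with quantile normalization or a pseudocount of 0.1.

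Leaving out each library gave 7 to 8 in 5-month FDB, 0 to 3 in EDL and 1 to 1 in SOL, and at 2 months 0 to 0 in FDB, 1 to 3 in EDL and 0 to 0 in SOL. Genotype by age gave 0 to 2 in FDB and 0 to 0 in EDL and SOL. Genotype by muscle at 5 months gave 4 to 7 for FDB minus EDL, 4 to 6 for FDB minus SOL and 0 to 0 for SOL minus EDL, and 0 to 0 for each at 2 months. In wt, FDB minus EDL gave 8 to 8 at 2 and 4 to 6 at 5 months, FDB minus SOL 8 to 8 and 7 to 7, and SOL minus EDL 0 to 2 and 0 to 1; with age FDB gave 6 to 7, EDL 1 to 1 and SOL 1 to 1. Later minus earlier gave 7 to 7 in FDB, 0 to 0 in EDL and 0 to 1 in SOL.

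In 5-month FDB pooled, Sox10 (0.31 and 0.20), Ncmap (0.33 and 0.30) and Egr2 (0.47 and 0.35) did not pass with median-of-ratios scaling or quantile normalization, nor Mag (0.16) with the second; Egr2 also missed without any of ns13, ns14, ns16, ns56 and ns57. In EDL at 5 months Pmp22 was 0.06 and 0.17 with the same scalings. Prx in EDL at 2 months missed without any of ns34, ns36, ns41 and ns44, and Sox10 without ns33 or ns44.

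No paired analysis was possible because the columns of the RPKM table carry group names and library numbers and no replicate number. Depth is approximate and libraries are few, so a difference in Mag, S100b, Sox10 or Egr2 below 1 RPKM is the least certain, and the pseudocount shrinks it most.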
